A study of Mus musculus with 30 samples.

Results

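Bulk RNA sequencing of hematopoietic stem cells (HSCs) set stem cells of mice that received MTP10-HDL beside those of mice that received phosphate-buffered saline (PBS). The question was how the transcripts differed over all measured genes. The comparison rests on 13 of the 30 samples of the series, picked by their cell type, assay and agent labels, 7 with PBS and 6 with MTP10-HDL. All mice were C57BL/6, and no other allele or agent is named for either group. Each library held HSCs pooled from 4 mice, and p-values thus refer to the spread among pools. MTP10-HDL is a nanobiologic built as a high-density lipoprotein particle that carries a muramyl tripeptide. The sources used here do not give the dose, injection schedule, age or sex of these mice, nor the markers of the sort.

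HSCs reside in the bone marrow and renew all blood lineages. They carry receptors for microbial products and cytokines, and infection or inflammation can change how much they divide and which lineages they feed. Muramyl peptides are pieces of the bacterial cell wall that the cytosolic receptor Nod2 binds, after which the kinase Ripk2 passes the signal on to NF-kB and MAP kinases. Trained immunity is the name for a lasting change in innate immune cells after such a stimulus, and it can be set up in marrow progenitors.

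No gene passed the false discovery rate (FDR) threshold of 0.05 in edgeR's quasi-likelihood test, and the smallest FDR was 0.19. At an unadjusted p under 0.05 stood 1469 of 16631 genes tested (8.83%), with 725 higher (4.36%) and 744 lower (4.47%) in MTP10-HDL HSCs. Counts of list members at p under 0.05 are to be read beside these shares. In 57 genes (0.343%) the 6 MTP10-HDL libraries did not overlap with the 7 PBS libraries, 29 of them higher (0.174%) and 28 lower (0.168%). No gene named here passed that threshold in edgeR, and "higher" and "lower" describe levels and not calls. Levels are given as CPM, read counts relative to the library total with edgeR's TMM scaling. Fold changes are MTP10-HDL over PBS on the log2 scale, with the standard error (SE) of the fit. The higher genes of smallest p included, outside the interferon response, Rhog, Slc35c1, Saal1, Traf7, Myd88, Chsy1 and Mapkapk2, and the lower genes were led by Tox, Ermap, Nfia, Slc22a23 and Igf2r.

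Libraries held 4064155 to 7879858 counts with PBS and 5467455 to 7641976 with MTP10-HDL (exact permutation p = 0.368, 2-sided). The first principal component (30.2% of the variance of the 1000 most variable genes) set the 4 libraries with the fewest detected genes (22.5 to 49.6) apart from the other 9 (-46.9 to -0.99). Libraries were put in 3 technical groups, each with both treatments. These are the 4 with the fewest detected genes (PBS 1 and 4, MTP10-HDL 2 and 3), 4 with the highest share of nuclear ribosomal RNA (PBS 2 and 3, MTP10-HDL 1 and 4) and the other 5. Of the 725 higher genes, 634 (87.4%) were higher within all 3 technical groups, and of the 744 lower genes 618 (83.1%) were lower in all 3. The choice of these genes by p over the same libraries largely sets these shares. Immunoglobulin genes took 0.271% to 19.8% of counts with PBS and 0.374% to 4.90% with MTP10-HDL.

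**Figure D1:**
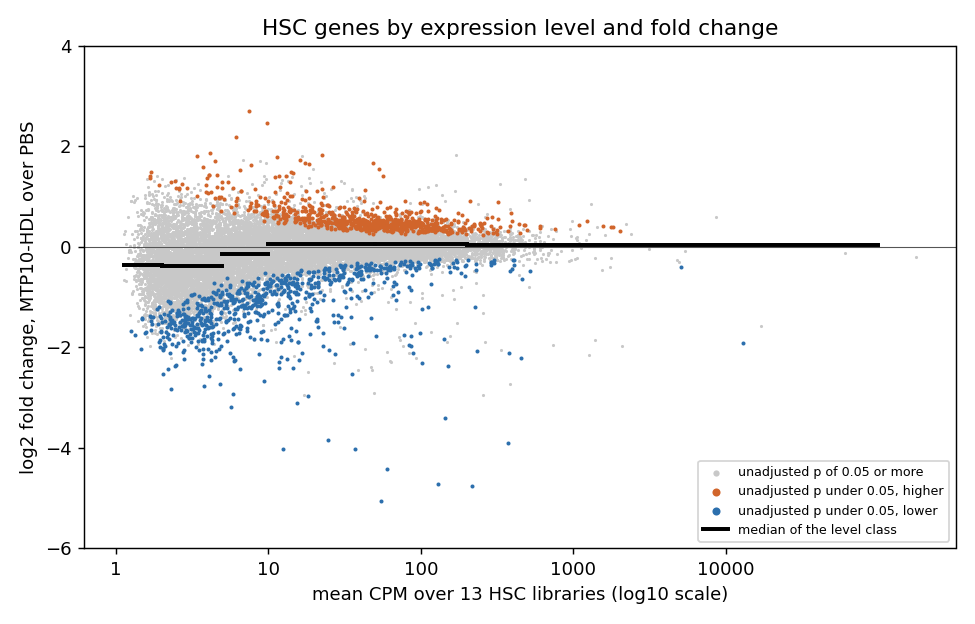
Log2 fold change (MTP10-HDL over PBS) against mean CPM over the 13 HSC libraries on a log10 axis, 1 point a gene. Orange and blue points have an unadjusted p under 0.05, and the black lines, the medians of 6 level classes, lie at -0.37, -0.38 and -0.14 under 10 CPM and at 0.05, 0.07 and 0.04 above it.

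Direction went along with expression level. Among the 6934 genes with a mean under 10 CPM the medians of the 3 level classes were -0.37, -0.38 and -0.14, and 73 were higher against 388 lower at p under 0.05. Among the 9697 genes at 10 CPM or more the class medians were 0.05, 0.07 and 0.04, with 652 higher against 356 lower. The filter on low counts asks for as many libraries above its cutoff as the smaller group, MTP10-HDL, holds. A scarce gene seen only with PBS could thus pass with a PBS library below the cutoff. A scarce gene seen only with MTP10-HDL needed all of its libraries. The part of this in the direction of scarce genes was not tested. Protein-coding genes had a median log2 fold change of 0.01 (690 higher and 552 lower at p under 0.05), long noncoding RNAs -0.24 (28 and 79) and immunoglobulin and T cell receptor segments -1.60 (0 and 19). DESeq2 tested more low-count genes and put only 28.0% of its 2792 genes at p under 0.05 on the higher side, against 49.4% in edgeR. With no filter on low counts that share was 36.9% of 4720 genes.

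Genes that shape the actin skeleton stood higher as a group after MTP10-HDL. Of 40 measured actin regulators, among them the small GTPases that steer actin, 32 had a log2 fold change above 0 (47.7% of all genes did), with a median of 0.24 against -0.02 for all genes, and 9 were higher at p under 0.05 with 0 lower. Rhog (chr7:102239123-102250118), a small GTPase that drives membrane ruffling and cell migration, was at 33.02 to 57.8 CPM with PBS and 64.8 to 106 CPM with MTP10-HDL (medians 45.3 and 77.9). All 6 MTP10-HDL libraries lay above every PBS library (log2 fold change 0.80, SE 0.16). Coro1c, a coronin that turns over branched actin, was at 52.7 to 80.1 CPM with PBS and 85.6 to 106 CPM with MTP10-HDL (medians 69.5 and 97.7), again without overlap (log2 fold change 0.52, SE 0.13). Arpc2, a core subunit of the Arp2/3 complex that nucleates actin branches, was at 267 to 486 CPM with PBS and 474 to 629 CPM with MTP10-HDL (medians 461 and 579), and the groups overlapped (log2 fold change 0.44, SE 0.14). Coro1a, the leukocyte coronin, had a log2 fold change of 0.46 (SE 0.15). The list's median stayed above 0 in all 21 alternatives computed, from 0.16 to 0.35, and was 0.092, 0.28 and 0.30 within the technical groups (fewest detected genes, highest ribosomal RNA, others).

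Some partners of these proteins were also among the higher genes. Of 13 measured DOCK and ELMO genes 2 were higher and 0 lower at p under 0.05 (15.4%, against 8.83% of all genes), with a median of 0.097. Of 27 SRC-family kinases and immune adaptors, the list that holds Vav1, 2 were higher and 1 lower (11.1%). Elmo2, which links Rhog to the exchange factors of the DOCK family, was at 23.8 to 40.4 CPM with PBS and 39.7 to 79.3 CPM with MTP10-HDL (medians 38.01 and 43.97; log2 fold change 0.52, SE 0.19, or 0.34 without MTP10-HDL 1), with 1 PBS library inside the MTP10-HDL range. Dock8, a DOCK exchange factor needed for leukocyte migration, had a log2 fold change of 0.29 (SE 0.13). Vav1, the exchange factor that hematopoietic cells use downstream of surface receptors, had 0.26 (SE 0.12). Msn, or moesin, which ties actin to the membrane, had 0.35 (SE 0.15), or 0.27 without MTP10-HDL 1. The lower genes held other actin proteins. Spire1, an actin nucleator of vesicle traffic, was at 54.7 to 91.9 CPM with PBS and 30.3 to 50.9 CPM with MTP10-HDL (medians 65.3 and 45.1), with no overlap (log2 fold change -0.70, SE 0.16). Myh10, the heavy chain of nonmuscle myosin IIB, had a log2 fold change of -1.02 (SE 0.22).

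**Figure D2:**
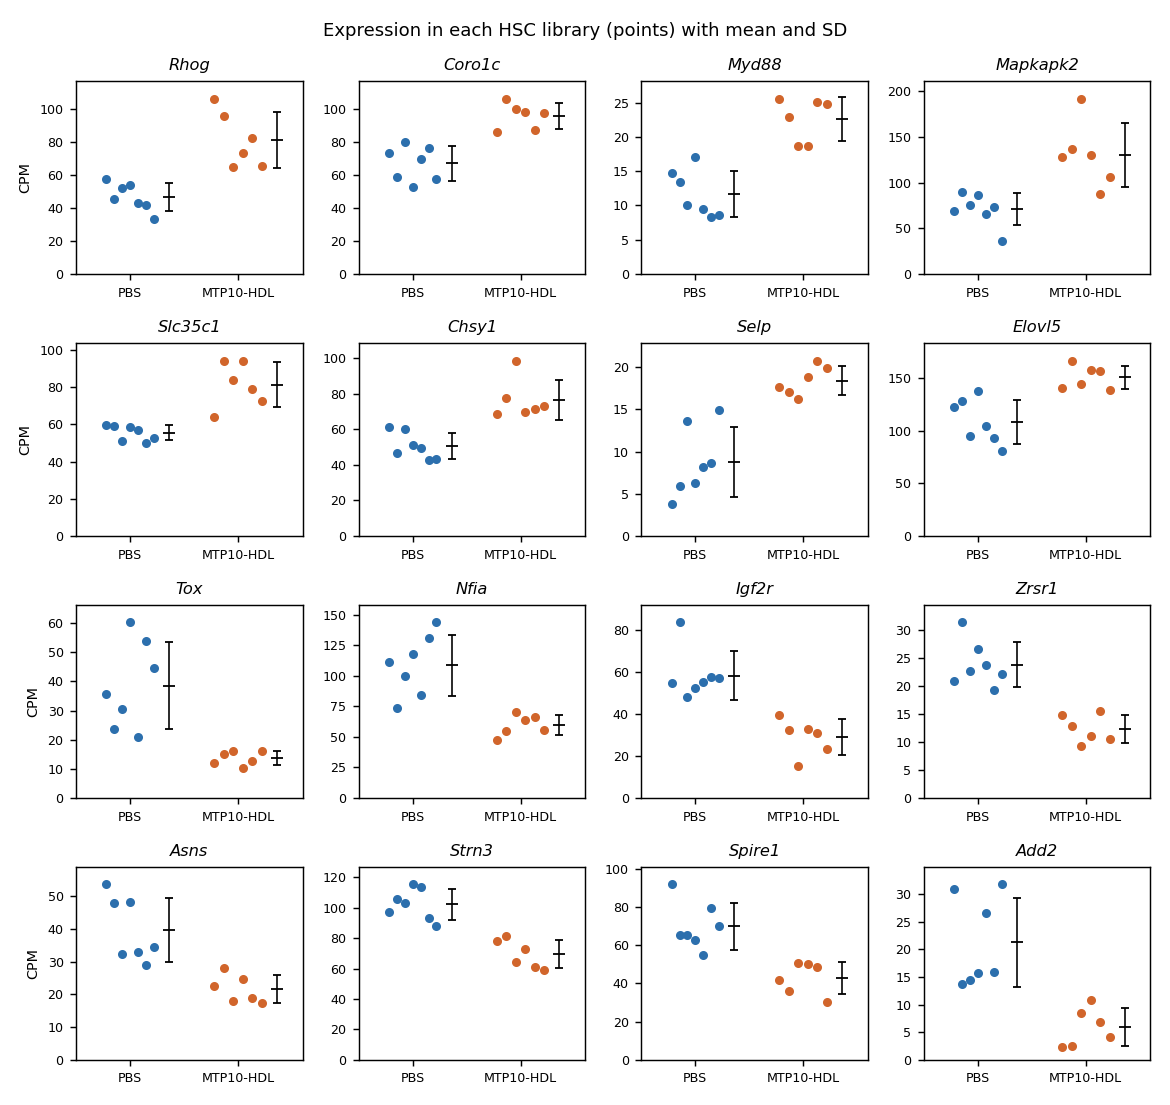
CPM of 16 genes in each of the 7 PBS (blue) and 6 MTP10-HDL (orange) HSC libraries, with the mean and SD beside each group. Each axis starts at 0. In 15 of the 16 panels no MTP10-HDL library overlaps a PBS library, the exception being Mapkapk2, where 1 MTP10-HDL library lies inside the PBS range.

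Carriers of innate immune signals were among the higher genes, while the receptor of muramyl peptides was too scarce for its direction to be read. Myd88 (chr9:119335934-119340018), which couples Toll-like receptors to NF-kB, was at 8.36 to 17.1 CPM with PBS and 18.6 to 25.6 CPM with MTP10-HDL (medians 10.1 and 23.8), with no overlap (log2 fold change 0.95, SE 0.21). Mapkapk2, the kinase downstream of p38 that stabilizes cytokine messages, was at 36.3 to 89.6 CPM with PBS and 87.5 to 192 CPM with MTP10-HDL (medians 73.2 and 129.5), and only the lowest MTP10-HDL library lay inside the PBS range (log2 fold change 0.88, SE 0.20). Traf7, a ubiquitin ligase of MAP kinase signalling, was at 21.2 to 37.5 CPM with PBS and 37.3 to 61.1 CPM with MTP10-HDL (medians 27.9 and 45.4; log2 fold change 0.77, SE 0.17); it overlaps Caskin1 in the annotation. Alox5ap, which hands arachidonic acid to the leukotriene-forming lipoxygenase, was at 41.2 to 75.3 CPM with PBS and 73.3 to 121 CPM with MTP10-HDL (medians 59.8 and 94.7; log2 fold change 0.68, SE 0.16). Nod2 was scarce, at 1.79 to 5.05 CPM with PBS and 0.611 to 5.99 CPM with MTP10-HDL (medians 2.57 and 3.87; log2 fold change 0.31, SE 0.48). Ripk2 was at 8.15 to 21.9 CPM with PBS and 6.32 to 17.7 CPM with MTP10-HDL (medians 12.5 and 10.1; log2 fold change -0.29, SE 0.31). Both of these fold changes lay within 1 SE of 0.

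Transcription factors of the STAT and IRF families, some of which interferon activates, were on the higher side too. Of 17 measured STAT and IRF factors 16 were above 0, with a median of 0.22. At p under 0.05, 3 were higher (17.6%, against 8.83% of all genes). Stat2, which type I interferon receptors activate, was at 52.95 to 71.6 CPM with PBS and 67.9 to 164 CPM with MTP10-HDL (medians 63.1 and 89.4; log2 fold change 0.61, SE 0.18, or 0.41 without MTP10-HDL 1). Irf7, the factor that amplifies interferon production, had a log2 fold change of 1.16 (SE 0.37), and 0.57 (SE 0.26) without MTP10-HDL 1, where it reached 86.0 CPM against at most 26.4 CPM in the other treated libraries. The median of the list was 0.27, 0.23 and 0.33 within the technical groups and 0.16 to 0.31 over all alternatives.

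Some of these factors read a short DNA pattern, the interferon-stimulated response element. Promoters were searched on both strands for a simplified form of it, GAAA followed after any 2 bases by GAAA again. In RefSeq promoters (GRCm38.p6, 250 bases before to 50 after the start), 438 of 11529 tested genes with a promoter held it (3.80%), and 1079 of all 27025 promoters (3.99%). Of higher genes at p under 0.05, 46 of 580 held it (7.93%), and of lower genes 14 of 450 (3.11%). The windows below are from named higher genes and lie wholly before the start, on the strand of the gene, with the match in capitals. They are shown to let the bases around the match be compared between genes of unlike function, an adaptor, a factor and a pair of Schlafen genes.
Myd88 (minus strand, chr9:119340039-119340068): gagcttctcgGAAAGCGAAAgaaggagggg
Stat2 (plus strand, chr10:128270266-128270295): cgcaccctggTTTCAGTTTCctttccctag
Slfn8 (minus strand, chr11:83020839-83020868): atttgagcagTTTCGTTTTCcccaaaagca
Slfn9 (minus strand, chr11:82991856-82991885): atccgagcagTTTCGTTTTCccaaaaacaa
The first printed base of the match lies 40 bases before the start in Myd88, 222 in Stat2, 48 in Slfn8 and 45 in Slfn9. Slfn8 and Slfn9 carry nearly the same stretch. A looser NF-kB pattern, GGGA followed after any 2 bases by TTCC, was in 2.76% of higher, 0.667% of lower and 1.67% of tested genes (16 of 580, 3 of 450 and 192 of 11529). A STAT-like pattern, TTC followed after any 3 bases by GAA, was in 10.0% of higher, 7.56% of lower and 8.34% of tested genes. A match describes letters only, and no test was run on these shares.

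Immune families that hold interferon-induced genes went both ways. Of 20 measured Schlafen, GIMAP and Ly6 genes, 4 were higher and 2 lower at p under 0.05 (30.0%, against 8.83% of all genes). Their median was -0.12. Slfn8, a Schlafen gene of immune cells, was at 79.1 to 91.4 CPM with PBS and 91.8 to 182 CPM with MTP10-HDL (medians 88.3 and 112), with no overlap (log2 fold change 0.48, SE 0.15). Slfn9 was at 54.7 to 94.6 CPM with PBS and 91.6 to 136 CPM with MTP10-HDL (medians 83.00 and 102), with only the lowest MTP10-HDL library inside the PBS range (log2 fold change 0.46, SE 0.15). These neighbours are near copies, and how reads that match both were counted is not given. Gimap3, a GTPase of lymphocyte survival, was lower, at 12.1 to 32.96 CPM with PBS and 3.32 to 12.4 CPM with MTP10-HDL (medians 18.98 and 9.08; log2 fold change -1.18, SE 0.29). Of 39 TRIM ubiquitin ligases 6 were higher and 2 lower (20.5%). Trim30c, from a family of near copies, was at 3.89 to 9.93 CPM with PBS and 5.33 to 33.3 CPM with MTP10-HDL (medians 5.93 and 14.8; log2 fold change 1.40, SE 0.39). Trim2, best known from neurons, was lower, at 6.02 to 29.1 CPM with PBS and 4.58 to 7.81 CPM with MTP10-HDL (medians 12.96 and 6.26; log2 fold change -1.25, SE 0.32). Clec2d, a ligand of natural killer cell receptors, was at 54.1 to 90.3 CPM with PBS and 79.4 to 132 CPM with MTP10-HDL (medians 67.6 and 104; log2 fold change 0.57, SE 0.16).

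Of 35 measured BCL2 family, caspase and other cell death genes, 6 were higher and 0 lower at p under 0.05, with a median of 0.13. That share was 17.1%, against 8.83% of all genes. Without PBS 2 and MTP10-HDL 1, 3 stood at p under 0.05. Gsdmd, the pore-forming executor of pyroptosis, was at 39.4 to 59.9 CPM with PBS and 54.5 to 102 CPM with MTP10-HDL (medians 48.8 and 70.2; log2 fold change 0.57, SE 0.16). Mlkl, the executor of necroptosis, was at 16.3 to 45.8 CPM with PBS and 29.8 to 57.5 CPM with MTP10-HDL (medians 27.8 and 44.00; log2 fold change 0.63, SE 0.22). Casp8, which holds necroptosis in check, was at 99.1 to 152 CPM with PBS and 134 to 208 CPM with MTP10-HDL (medians 121 and 162; log2 fold change 0.41, SE 0.13). Bcl2l12, a BCL2-related protein, had a log2 fold change of 0.79 (SE 0.30) at a level under 10 CPM. All of these overlapped between groups. In the p53 list of 30 genes 1 was higher and 3 lower (13.3%).

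**Figure D3:**
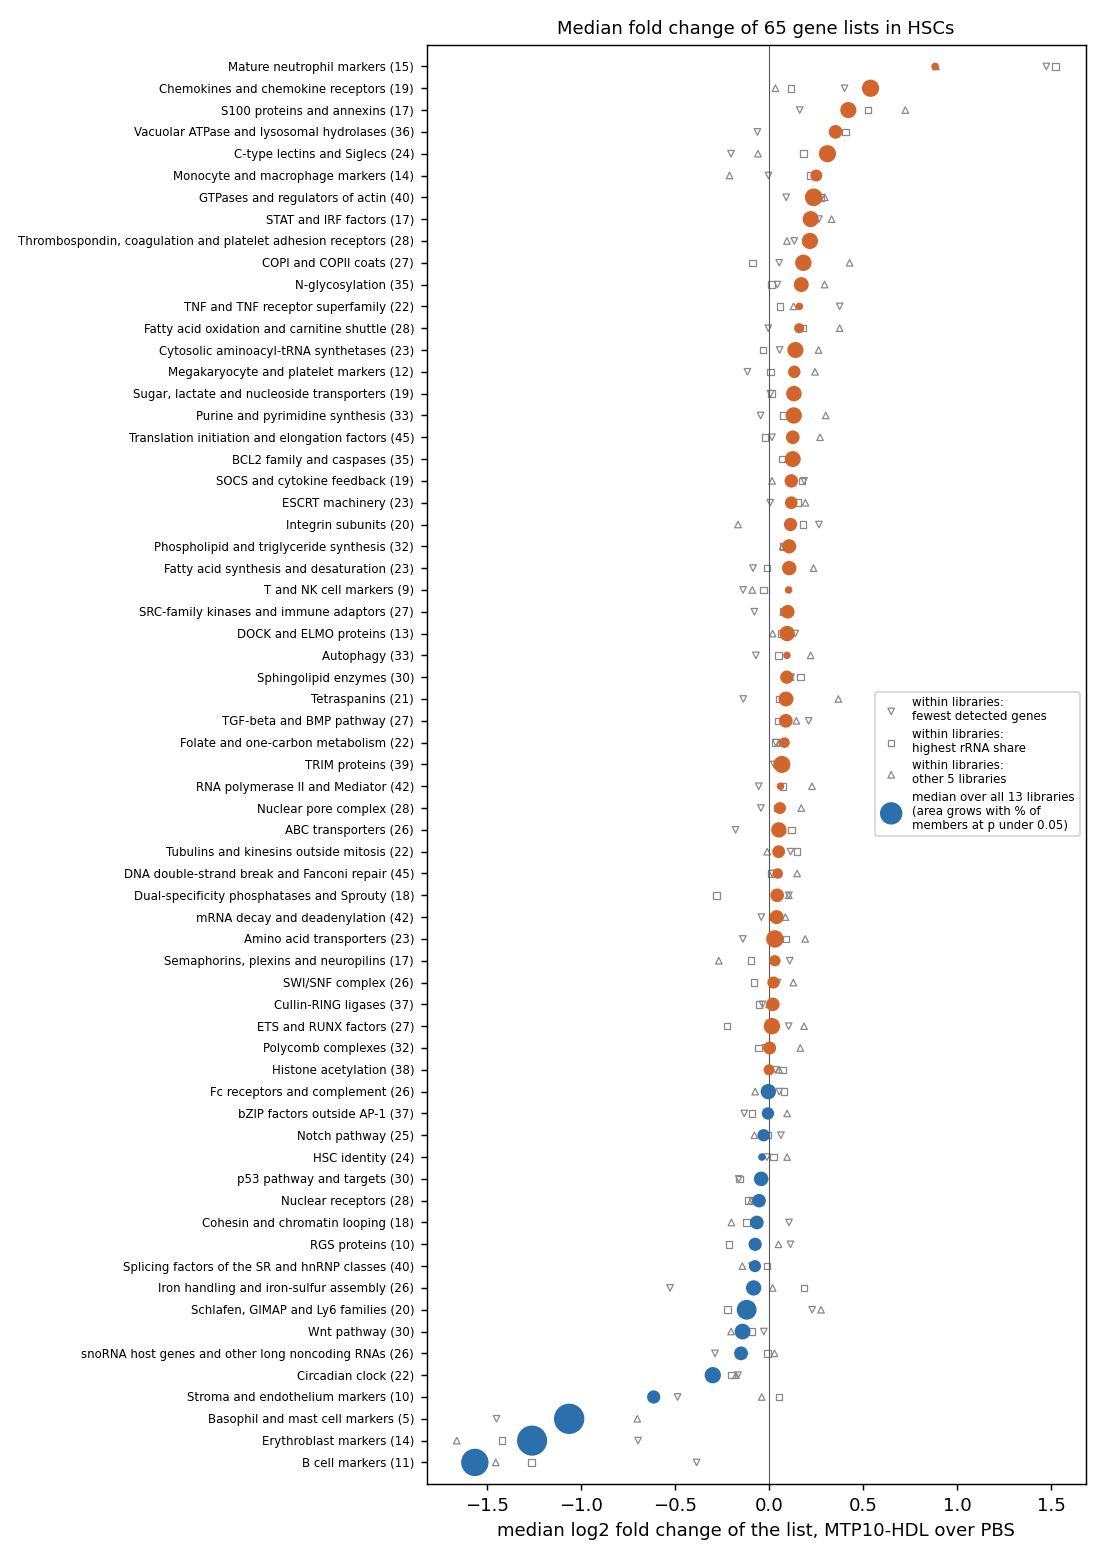
Median log2 fold change of each of the 65 gene lists (number of tested genes in brackets) over all 13 libraries (filled circles, orange above 0 and blue below, with area growing with the share of members at p under 0.05) and within the 3 technical groups (open marks). Erythroblast, B cell and basophil markers lie lowest, and most of the other lists lie between -0.3 and 0.4.

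Across the 65 lists, 47 had a median above 0, and 6 had no member at p under 0.05. Sugar-chain and secretory genes were among the lists on the higher side. Slc35c1 (chr2:92452764-92460518), the Golgi carrier of GDP-fucose that fucosylated adhesion ligands depend on, was at 50.02 to 59.7 CPM with PBS and 63.8 to 94.3 CPM with MTP10-HDL (medians 56.7 and 81.6), with no overlap (log2 fold change 0.55, SE 0.12). Chsy1, which builds chondroitin sulfate chains, was at 42.8 to 61.04 CPM with PBS and 68.5 to 98.5 CPM with MTP10-HDL (medians 49.4 and 72.4), also with no overlap (log2 fold change 0.60, SE 0.14). Of 35 N-glycosylation genes 21 were above 0 (median 0.17). At p under 0.05, 4 were higher and 1 lower (14.3%, against 8.83% of all genes). They include Ddost, a subunit of the transferase that attaches the sugar chain, at 51.3 to 102 CPM with PBS and 77.8 to 126 CPM with MTP10-HDL (medians 74.1 and 99.5; log2 fold change 0.41, SE 0.16). Mgat5, which adds branches to it, was at 85.03 to 120.2 CPM with PBS and 112 to 159 CPM with MTP10-HDL (medians 103 and 127; log2 fold change 0.33, SE 0.12). Of 27 coat genes that form vesicles between endoplasmic reticulum and Golgi, 21 were above 0 (median 0.18), and 5 were higher and 0 lower (18.5%). Sec23b, a COPII coat subunit, was at 27.8 to 54.4 CPM with PBS and 36.4 to 61.4 CPM with MTP10-HDL (medians 33.1 and 56.7; log2 fold change 0.52, SE 0.18). Copz1, a COPI subunit, was at 62.1 to 133 CPM with PBS and 95.1 to 167 CPM with MTP10-HDL (medians 81.3 and 116; log2 fold change 0.48, SE 0.18). The coat median was 0.43 in the other 5 libraries, 0.055 in those with the fewest detected genes and -0.088 in those with the highest ribosomal RNA share.

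Lysosomal genes had a larger positive median. Of 36 measured vacuolar ATPase subunits and lysosomal hydrolases 31 were above 0 (median 0.35), and 4 were higher and 0 lower at p under 0.05. That share, 11.1%, was near the 8.83% of all genes. Atp6v1b2, a catalytic-sector subunit of the proton pump that acidifies lysosomes, was at 60.3 to 93.2 CPM with PBS and 83.97 to 169 CPM with MTP10-HDL (medians 81.02 and 104; log2 fold change 0.52, SE 0.16). Man2b1, a lysosomal mannosidase, was at 139.8 to 334 CPM with PBS and 230.4 to 481 CPM with MTP10-HDL (medians 217 and 263; log2 fold change 0.48, SE 0.20, or 0.31 without MTP10-HDL 1). The median of the list was -0.061, 0.41 and 0.35 within the technical groups. Without MTP10-HDL 1 it was 0.12, and without the 4 libraries of fewest detected genes it was 0.61. Autophagy genes, which feed the lysosome, had a median of 0.096 and 0 of 33 at p under 0.05.

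Lists of nucleotide, one-carbon and lipid metabolism had small positive medians. Of 33 purine and pyrimidine synthesis genes 26 were above 0 (median 0.13). At p under 0.05, 6 were higher and 0 lower (18.2%, against 8.83% of all genes). Paics, which carries out 2 consecutive steps of purine synthesis, was at 459 to 597 CPM with PBS and 499 to 941 CPM with MTP10-HDL (medians 506 and 682; log2 fold change 0.42, SE 0.14). Prps1, which makes the activated ribose, was at 17.4 to 56.5 CPM with PBS and 44.8 to 74.9 CPM with MTP10-HDL (medians 44.4 and 62.2; log2 fold change 0.57, SE 0.21). The median was -0.044, 0.077 and 0.30 within the technical groups. Of 28 fatty acid oxidation genes 25 were above 0 (median 0.16), but 1 was at p under 0.05, Acadl, an acyl-CoA dehydrogenase (log2 fold change 0.32, SE 0.13). Elovl5, an elongase of polyunsaturated fatty acids, was at 80.6 to 137 CPM with PBS and 138 to 167 CPM with MTP10-HDL (medians 104 and 150.4), with no overlap (log2 fold change 0.47, SE 0.13). Acacb, which makes the malonyl-CoA that blocks fatty acid entry into mitochondria, was on the lower side (log2 fold change -0.71, SE 0.34). Mgll, which cleaves monoacylglycerols, was at 3.54 to 13.2 CPM with PBS and 2.27 to 3.98 CPM with MTP10-HDL (medians 10.98 and 2.46), and only the highest MTP10-HDL library overlapped the PBS range (log2 fold change -1.74, SE 0.37). Abcg1, a cholesterol exporter to high-density lipoprotein, was at 36.5 to 142 CPM with PBS and 84.2 to 175 CPM with MTP10-HDL (medians 79.9 and 126; log2 fold change 0.69, SE 0.26). The lactate exporter Slc16a3, which overlaps Csnk1d in the annotation, was at 1.25 to 7.28 CPM with PBS and 4.44 to 12.9 CPM with MTP10-HDL (medians 4.38 and 10.7; log2 fold change 1.11, SE 0.41). The glucose carrier Slc2a1 was at 21.8 to 60.2 CPM with PBS and 32.1 to 72.1 CPM with MTP10-HDL (medians 32.4 and 48.3; log2 fold change 0.55, SE 0.25).

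Protein synthesis genes at p under 0.05 were all on the higher side. Of 23 cytosolic aminoacyl-tRNA synthetases 16 were above 0 (median 0.14), with 4 higher and 0 lower, among them Gars for glycine (log2 fold change 0.39, SE 0.14) and Kars for lysine (log2 fold change 0.46, SE 0.18). Of 45 translation factors 28 were above 0 (median 0.13), with 5 higher and 0 lower. The share at p under 0.05 was 17.4% in the synthetases and 11.1% in translation factors, against 8.83% of all genes. Within the technical groups (fewest detected genes, highest ribosomal RNA, others) the synthetase median was 0.057, -0.032 and 0.26. That of translation factors was 0.016, -0.02 and 0.27. Eif3l, a subunit of an initiation factor, was at 67.1 to 123 CPM with PBS and 113 to 163 CPM with MTP10-HDL (medians 108 and 148; log2 fold change 0.48, SE 0.14). The most abundant gene of this kind was Eef1a1, the elongation factor, with 512 to 1234 CPM with PBS and 955 to 1474 CPM with MTP10-HDL (medians 942 and 1349; log2 fold change 0.43, SE 0.19). Asns, which makes asparagine and is a known target of the stress factor Atf4, belongs to neither list and was lower, at 29.1 to 53.6 CPM with PBS and 17.4 to 28.2 CPM with MTP10-HDL (medians 34.3 and 20.7), without overlap (log2 fold change -0.88, SE 0.19). Slc38a5, a carrier of glutamine and asparagine, was at 4.36 to 20.3 CPM with PBS and 2.75 to 5.26 CPM with MTP10-HDL (medians 11.4 and 4.51; log2 fold change -1.46, SE 0.33). Ddit3, another Atf4-related stress gene, was at 7.56 to 22.1 CPM with PBS and 5.98 to 12.9 CPM with MTP10-HDL (medians 12.01 and 7.70; log2 fold change -0.66, SE 0.30). The Asns promoter is printed because it holds the letters TGATGNAA (TTNCATCA on the other strand), part of the element that Atf4 and its partners bind, from 23 bases before the start.
Asns (minus strand, chr6:7693214-7693243): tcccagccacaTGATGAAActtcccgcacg
That pattern was in 333 of 11529 tested promoters (2.89%), in 15 of 450 of lower genes (3.33%) and in 10 of 580 of higher genes (1.72%), Gars and Prps1 among the latter.

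Lists of adhesion genes lay near or somewhat above the share of all genes at p under 0.05 (8.83%). That share was 10.0% in 20 integrin subunits (2 higher and 0 lower), 14.3% in 21 tetraspanins (2 and 1) and 17.9% in 28 thrombospondin, coagulation and platelet adhesion genes (4 and 1). The genes below are examples from these and other lists and do not make up a list of their own. Selp, or P-selectin, which megakaryocytes, endothelium and some HSCs carry, was at 3.73 to 14.97 CPM with PBS and 16.2 to 20.8 CPM with MTP10-HDL (medians 8.16 and 18.2), with no overlap (log2 fold change 1.07, SE 0.28). Cxcr4, the receptor that keeps HSCs in the marrow, was at 63.6 to 117 CPM with PBS and 92.9 to 184 CPM with MTP10-HDL (medians 103 and 141; log2 fold change 0.54, SE 0.18). Itga6, an integrin of laminin binding, was at 79.9 to 163 CPM with PBS and 121 to 175 CPM with MTP10-HDL (medians 100.0 and 147; log2 fold change 0.35, SE 0.16). The tetraspanin Cd151, which binds such integrins, was at 8.36 to 21.4 CPM with PBS and 16.8 to 32.6 CPM with MTP10-HDL (medians 15.2 and 20.2; log2 fold change 0.56, SE 0.23). Emb, or embigin, a cell adhesion glycoprotein, was at 117 to 189 CPM with PBS and 169 to 266 CPM with MTP10-HDL (medians 154 and 234; log2 fold change 0.63, SE 0.14). The opposite held for Thbs1, thrombospondin 1, at 10.9 to 38.7 CPM with PBS and 1.47 to 16.1 CPM with MTP10-HDL (medians 25.3 and 5.51; log2 fold change -1.89, SE 0.48). Among these 6 genes only Selp kept the groups apart.

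The lower genes of smallest p had unlike functions. Tox (chr4:6686353-6991557), a chromatin factor of lymphoid development, was at 20.96 to 60.2 CPM with PBS and 10.3 to 16.2 CPM with MTP10-HDL (medians 35.6 and 13.9), without overlap (log2 fold change -1.49, SE 0.25, unadjusted p = 1.63e-05), the smallest p of all genes tested. Nfia (chr4:97578066-98118876), a nuclear factor that favours the erythroid over the granulocytic fate, was at 73.2 to 144 CPM with PBS and 47.5 to 70.1 CPM with MTP10-HDL (medians 111 and 59.7), without overlap (log2 fold change -0.86, SE 0.16). Slc22a23, an orphan solute carrier, was at 15.9 to 24.7 CPM with PBS and 6.77 to 12.6 CPM with MTP10-HDL (medians 20.3 and 9.06) without overlap (log2 fold change -1.09, SE 0.21). Strn3, a striatin that targets phosphatase PP2A, was at 88.1 to 115 CPM with PBS and 59.4 to 81.5 CPM with MTP10-HDL (medians 103 and 68.3), also without overlap (log2 fold change -0.56, SE 0.12). Paqr9, a membrane receptor of the progestin and adiponectin receptor family, was at 22.96 to 129.6 CPM with PBS and 5.02 to 21.8 CPM with MTP10-HDL (medians 51.7 and 16.6) without overlap (log2 fold change -1.92, SE 0.39).

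**Figure D4:**
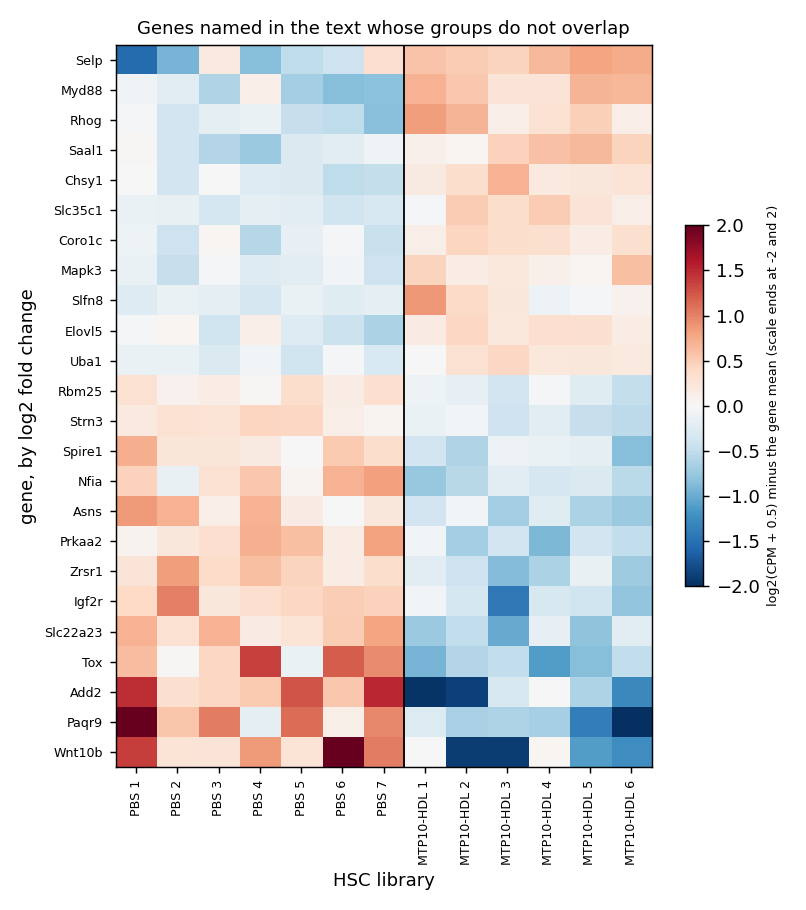
Heat map of the 24 genes named in the text, of 57 in all, whose 6 MTP10-HDL libraries do not overlap with the 7 PBS libraries, as log2(CPM + 0.5) minus the gene's mean, ordered by fold change. The 11 higher genes turn from blue to red and the 13 lower genes from red to blue at the black line between the groups, as the choice of genes sets.

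Some lower genes are imprinted, that is, read from 1 parental copy. Igf2r (chr17:12682406-12769706), which clears insulin-like growth factor 2, was at 47.9 to 83.5 CPM with PBS and 15.01 to 39.5 CPM with MTP10-HDL (medians 54.9 and 31.6), without overlap (log2 fold change -1.01, SE 0.20). Zrsr1 (chr11:22972005-22976496), a splicing factor, was at 19.3 to 31.4 CPM with PBS and 9.30 to 15.6 CPM with MTP10-HDL (medians 22.6 and 11.98), without overlap (log2 fold change -0.94, SE 0.19). Kcnq1ot1, a long noncoding RNA that silences its neighbours, was at 516 to 869 CPM with PBS and 378 to 522 CPM with MTP10-HDL (medians 554 and 422; log2 fold change -0.47, SE 0.14). H19, the partner transcript of Igf2, was at 2.60 to 13.99 CPM with PBS and 0.531 to 2.93 CPM with MTP10-HDL (medians 4.27 and 2.25; log2 fold change -1.59, SE 0.52). Igf2r overlaps the antisense transcript Airn, Zrsr1 lies inside Commd1 and Kcnq1ot1 runs against Kcnq1, and with no strand setting given for the counting, reads of such pairs cannot be told apart. No list of imprinted genes was made for this comparison.

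Transcripts that stay in the nucleus or serve splicing had negative medians. Of 26 long noncoding RNAs and snoRNA hosts 7 were above 0 (median -0.15), with 0 higher and 3 lower at p under 0.05. Malat1, an abundant nuclear RNA, was at 4524 to 6348 CPM with PBS and 3220.2 to 6777 CPM with MTP10-HDL (medians 5799 and 4004; log2 fold change -0.41, SE 0.16). Of 40 splicing factors 14 were above 0 (median -0.07), with 1 higher (Ptbp1) and 2 lower (Zrsr1 and Tra2b). The share at p under 0.05 was 11.5% in the noncoding list and 7.5% in splicing factors, near the 8.83% of all genes. Tra2b, an activator of exon inclusion, was at 79.7 to 143 CPM with PBS and 66.6 to 96.8 CPM with MTP10-HDL (medians 105 and 83.03; log2 fold change -0.39, SE 0.16). Both medians kept their sign in all 21 alternatives, with values closest to 0 of -0.017 and -0.01, but the noncoding list was at -0.29, -0.006 and 0.03 within the technical groups.

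Clock genes were also on the lower side. Of 22 clock genes 4 were above 0 (median -0.30). At p under 0.05, 3 were lower and 1 higher (18.2%, against 8.83% of all genes). Tef, an output factor of the clock, was at 14.3 to 19.3 CPM with PBS and 6.77 to 14.8 CPM with MTP10-HDL (medians 16.6 and 9.65; log2 fold change -0.63, SE 0.22). Bhlhe40, a repressor within the clock, was at 16.7 to 30.1 CPM with PBS and 3.79 to 22.7 CPM with MTP10-HDL (medians 21.4 and 11.2; log2 fold change -0.90, SE 0.32). The kinase Csnk1d, which overlaps Slc16a3 in the annotation, was the higher one (log2 fold change 0.34, SE 0.13). The median was -0.16, -0.20 and -0.18 within the technical groups and -0.35 to -0.17 over the alternatives. The sources used here do not state the time of day of the collection. Among 28 nuclear receptors 0 were higher and 3 lower, namely the 3 Nr4a genes, early genes that restrain HSC division. That share, 10.7%, was near the 8.83% of all genes. Nr4a1 was at 3.57 to 108 CPM with PBS and 2.84 to 23.00 CPM with MTP10-HDL (medians 12.4 and 6.63; log2 fold change -1.97, SE 0.70), with the groups overlapping widely. Lists of feedback inhibitors had no common direction. Of 19 SOCS and cytokine feedback genes 12 were above 0 (median 0.12), with 2 higher and 0 lower. Of 18 dual-specificity phosphatases and Sprouty genes 10 were above 0 (median 0.044), with 0 higher and 2 lower, Spry2 and Dusp5. Of 10 RGS proteins 5 were above 0 (median -0.07), with 1 higher and 0 lower. The shares at p under 0.05 in these 3 lists, in order, were 10.5%, 11.1% and 10.0%, near that of all genes. Zfp36, from the list of messenger RNA decay, which destabilizes cytokine messages, was at 51.96 to 557 CPM with PBS and 70.8 to 235 CPM with MTP10-HDL (medians 261 and 126; log2 fold change -1.21, SE 0.48). Spry2, a brake on growth factor receptors, was at 9.17 to 20.5 CPM with PBS and 4.29 to 9.72 CPM with MTP10-HDL (medians 11.9 and 6.97; log2 fold change -0.87, SE 0.28). Dusp5, a phosphatase of ERK, was at 1.79 to 21.1 CPM with PBS and 1.42 to 5.18 CPM with MTP10-HDL (medians 4.62 and 2.54; log2 fold change -1.64, SE 0.54).

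Developmental pathways had no common direction. In the Wnt list of 30 genes 10 were above 0 (median -0.14), with 2 higher and 3 lower. Wnt10b, a ligand known to support stem cells, was under 10 CPM throughout, at 1.74 to 7.24 CPM with PBS and 0 to 1.42 CPM with MTP10-HDL (medians 2.89 and 0.331), and did not overlap (log2 fold change -2.52, SE 0.77). It passed the filter on low counts mainly through its PBS libraries, so the filter in part sets its direction and lack of overlap. Tcf3, an E protein at the root of lymphoid development, was at 54.5 to 88.2 CPM with PBS and 36.6 to 62.1 CPM with MTP10-HDL (medians 62.4 and 48.1; log2 fold change -0.43, SE 0.15). Tcf3 is counted among the 3 lower genes of the list, though this E protein is not a Wnt transducer. The list was not computed without it. The corepressor Tle3 was at 45.8 to 67.1 CPM with PBS and 29.97 to 59.9 CPM with MTP10-HDL (medians 56.2 and 41.1; log2 fold change -0.45, SE 0.16). Wls, which carries Wnt ligands to the surface, was on the higher side (log2 fold change 0.51, SE 0.21). Without PBS 6 the median of the Wnt list was 0.0025, so that its sign rested on that library. In Notch (25 genes), TGF-beta and BMP (27), SWI/SNF (26), Polycomb (32) and histone acetylation (38) lists the medians lay between -0.03 and 0.09, with 1 or 2 members at p under 0.05 in each direction.

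Red cell genes were lower beyond the erythroblast list itself. All 14 measured erythroblast markers were below 0 (median -1.26), with 11 lower at p under 0.05, and their summed level ran from 684 to 1294 CPM with PBS and from 371 to 702 CPM with MTP10-HDL. Among the 20 lower genes of smallest p, Add2 and Ank1 encode the membrane skeleton of red cells and Aqp1 their water channel. Add2 was at 13.6 to 31.7 CPM with PBS and 2.40 to 10.8 CPM with MTP10-HDL (medians 15.9 and 5.49), without overlap (log2 fold change -1.85, SE 0.37). Ank1 was at 22.8 to 70.6 CPM with PBS and 4.12 to 29.3 CPM with MTP10-HDL (medians 43.4 and 14.4; log2 fold change -1.61, SE 0.37). Aqp1 was at 25.9 to 83.3 CPM with PBS and 12.7 to 28.9 CPM with MTP10-HDL (medians 37.3 and 17.4; log2 fold change -1.20, SE 0.27). Genes of iron uptake were on the lower side. Tfrc, which brings in iron, was at 76.5 to 198 CPM with PBS and 66.8 to 119.7 CPM with MTP10-HDL (medians 153 and 83.3; log2 fold change -0.73, SE 0.19). Slc11a2, which releases it from endosomes, was at 25.8 to 84.3 CPM with PBS and 23.3 to 42.6 CPM with MTP10-HDL (medians 46.2 and 32.3; log2 fold change -0.65, SE 0.23), while the list of 26 had a median of -0.08. Fewer cells of a type and less RNA per cell cannot be told apart in bulk samples.

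Erythroid and mast cell genes are read by GATA factors, and the pattern AGATAA, searched on both strands, was in 64 of 450 promoters of lower genes (14.2%), in 46 of 580 of higher genes (7.93%), in 976 of 11529 of tested genes (8.47%) and in 3432 of 27025 promoters in all (12.7%). The share of lower genes is thus near that of all promoters and above that of tested genes. Among the 20 genes of smallest p in each direction, it was in 3 of 16 higher and 2 of 12 lower genes with a promoter. Slc35c1, Casp8 and Slfn9 are higher genes that hold it. The windows of 3 lower genes are shown as examples of where it lies, for an erythroid ubiquitin ligase, a blood group antigen and a mast cell receptor subunit.
Trim10 (plus strand, chr17:36869399-36869428): agctcaagagccTTATCTgagtccccacac
Rhd (plus strand, chr4:134864481-134864510): cccggcagcctgAGATAAgacctttggcgg
Ms4a2 (minus strand, chr19:11623739-11623768): cagcctggagacTTATCTgacaagtaggtt
Trim10 was at 0.753 to 12.1 CPM with PBS and 0 to 1.46 CPM with MTP10-HDL (medians 5.58 and 1.03; log2 fold change -2.76, SE 0.67). Such a gene passes the filter on low counts mainly through its PBS libraries, which in part sets its direction. Rhd was at 3.64 to 14.9 CPM with PBS and 0.343 to 6.77 CPM with MTP10-HDL (medians 9.47 and 1.09; log2 fold change -2.27, SE 0.58). Ms4a2 was at 8.04 to 45.1 CPM with PBS and 0.398 to 15.4 CPM with MTP10-HDL (medians 24.00 and 3.29; log2 fold change -2.25, SE 0.58). Gata1 itself was at 6.27 to 27.4 CPM with PBS and 5.66 to 16.2 CPM with MTP10-HDL (medians 11.4 and 12.5; log2 fold change -0.25, SE 0.33).

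Markers of mature cells moved with the treatment and with single libraries. All 5 measured basophil and mast cell markers were below 0 (median -1.06, 4 lower at p under 0.05), and all 11 B cell markers were (median -1.56, 7 lower). Summed B cell markers ran from 53.96 to 476 CPM with PBS and from 51.5 to 147 CPM with MTP10-HDL. Mature neutrophil markers were all above 0 (15 of 15, median 0.88) with 0 at p under 0.05, and their sum ran from 139 to 4664 CPM with PBS and from 725 to 6573 CPM with MTP10-HDL. The neutrophil median fell to 0.15 without PBS 2 and MTP10-HDL 1 and rose to 1.38 without PBS 5, its extremes over the alternatives. Monocyte and macrophage markers ran from 517 to 4106 CPM with PBS and from 835 to 9011 CPM with MTP10-HDL, with 9 of 14 above 0 and a median that reversed to -0.68 without PBS 2 and MTP10-HDL 1. None of the markers of these 4 lists was at 0 in all libraries, and their part in the differences was not tested.

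Among genes that averaged 10 CPM or more, the largest fold changes went along with high values in single libraries. At that level the 10 higher genes of largest fold with p under 0.05 were Tlr1, Dab2, Pla2g7, Lifr, Fcgr2b, Gpr141, Tgfbi, Spon1, Ifi213 and Ms4a6b, with log2 fold changes of 1.42 to 1.82, and in each MTP10-HDL 1 was the highest library. Tgfbi, a matrix protein abundant in monocytes, was at 297 CPM in MTP10-HDL 1 and at most 74.1 CPM in the other treated libraries, and its log2 fold change was 1.56 with it and 0.50 (SE 0.39) without it. Fcgr2b, the inhibitory Fc receptor, was at 300.2 CPM against at most 73.2 CPM, with 1.66 and 0.43 (SE 0.38). Tlr1, a receptor of bacterial lipopeptides, was at 157 CPM against at most 30.0 CPM, with 1.82 and 0.28 (SE 0.63). Only Ms4a6b, a monocyte and T cell surface protein, kept an unadjusted p under 0.05 without that library, with 0.59 (SE 0.18). The 10 lower genes of largest fold at that level were 9 immunoglobulin segments and Col1a1, a collagen of stroma, at 149 CPM in PBS 1, whose log2 fold change was -3.11 with PBS 1 and -0.87 without it.

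Stem cell identity itself was measured without a clear difference. Of 24 HSC identity genes 9 were above 0, 0 were at p under 0.05 in either direction and the median was -0.04, and their summed level ran from 2679 to 4932 CPM with PBS and from 2823 to 3951 CPM with MTP10-HDL. All 24 were detected, but so was every listed marker of the other cell types, and detection alone does not tell these cells apart. Procr, the endothelial protein C receptor used to sort HSCs, was at 18.3 to 25.98 CPM with PBS and 16.5 to 26.6 CPM with MTP10-HDL (medians 23.00 and 22.4; log2 fold change -0.0022, SE 0.17). Kit, the stem cell factor receptor, was at 357 to 709 CPM with PBS and 378 to 672 CPM with MTP10-HDL (medians 562 and 608; log2 fold change 0.089, SE 0.17). Flt3, a receptor of multipotent progenitors, was at 103 to 171 CPM with PBS and 65.2 to 178 CPM with MTP10-HDL (medians 121 and 134; log2 fold change 0.018, SE 0.20). Mpo, the myeloperoxidase of granulocyte progenitors, was at 496 to 1401 CPM with PBS and 435 to 2874 CPM with MTP10-HDL (medians 712 and 936; log2 fold change 0.51, SE 0.35, or 0.021 without MTP10-HDL 4), and Mki67, a marker of dividing cells, at 1302 to 1709.6 CPM with PBS and 874 to 1521 CPM with MTP10-HDL (medians 1489 and 1297; log2 fold change -0.22, SE 0.13). A range of 2 SE on each side of the fold change runs from -0.34 to 0.34 for Procr and from -0.19 to 1.22 for Mpo, so a difference as large as that of Rhog lies outside it for Procr and inside it for Mpo.

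Among the most abundant genes at p under 0.05, the ATP synthase subunit Atp5b was at 855 to 1164 CPM with PBS and 1157 to 1675 CPM with MTP10-HDL (medians 1014 and 1584; log2 fold change 0.52, SE 0.13). Cdk6, which drives HSCs out of quiescence, was at 1256 to 1759 CPM with PBS and 1337 to 2307 CPM with MTP10-HDL (medians 1574 and 2141; log2 fold change 0.39, SE 0.14), and the class I molecule H2-D1, which has near copies, at 459 to 631 CPM with PBS and 591 to 912 CPM with MTP10-HDL (medians 522 and 647; log2 fold change 0.37, SE 0.13). Hsp90ab1, the constitutive chaperone, was at 1533 to 2187 CPM with PBS and 1611 to 2754 CPM with MTP10-HDL (medians 1749.6 and 2252; log2 fold change 0.32, SE 0.14). Tubb5, the common beta-tubulin, was at 878 to 2068 CPM with PBS and 1102 to 2252 CPM with MTP10-HDL (medians 1327 and 1799.5; log2 fold change 0.42, SE 0.19). Of the 10 most abundant, 8 were higher and 2 lower, Malat1 and the immunoglobulin light chain Igkc. Outside the naming rule, and chosen after their values were seen because their groups did not overlap, stood Uba1, Mapk3, Rbm25 and Prkaa2. Uba1, the main activating enzyme of ubiquitin, was at 286 to 368 CPM with PBS and 373 to 504 CPM with MTP10-HDL (medians 342 and 437; log2 fold change 0.42, SE 0.11). Mapk3, the kinase ERK1, was at 32.3 to 43.9 CPM with PBS and 45.6 to 67.8 CPM with MTP10-HDL (medians 37.95 and 50.5; log2 fold change 0.49, SE 0.14). Rbm25, a splicing regulator, was at 396 to 499 CPM with PBS and 279.7 to 380.1 CPM with MTP10-HDL (medians 435 and 341; log2 fold change -0.43, SE 0.11). Prkaa2, a catalytic subunit of AMP-activated kinase, was at 12.01 to 20.3 CPM with PBS and 5.86 to 10.98 CPM with MTP10-HDL (medians 14.5 and 8.30; log2 fold change -0.93, SE 0.23).

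Fold changes also went along with the genomic span of a gene. For 9097 coding genes at 10 CPM or more with a span in the annotation (99.2% of 9170), sorted into 6 equal classes, the median log2 fold change was 0.14 in genes of 0.375 to 8.64 kb, 0.12 and 0.11 in the next classes, 0.059 and 0.016 above them and -0.012 in genes of 85.6 to 2390 kb. At p under 0.05, 134 genes were higher and 42 lower in the shortest class, and 61 were higher and 107 lower in the longest. Tox and Nfia, which span 305 and 541 kb, belong to the longest class, and Slc35c1, with 7.75 kb, to the shortest one. Within the technical groups the medians from shortest to longest class went from 0.35 to -0.044 in the other 5 libraries, from 0.10 to -0.060 in those with the highest ribosomal RNA share and from -0.058 to 0.033 in those with the fewest detected genes, the opposite order. The difference between longest and shortest class in single libraries ran from -0.30 to 0.27 (log2) with PBS and from -0.24 to 0.066 with MTP10-HDL. Its part in the results of single genes was not tested.

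**Figure D5:**
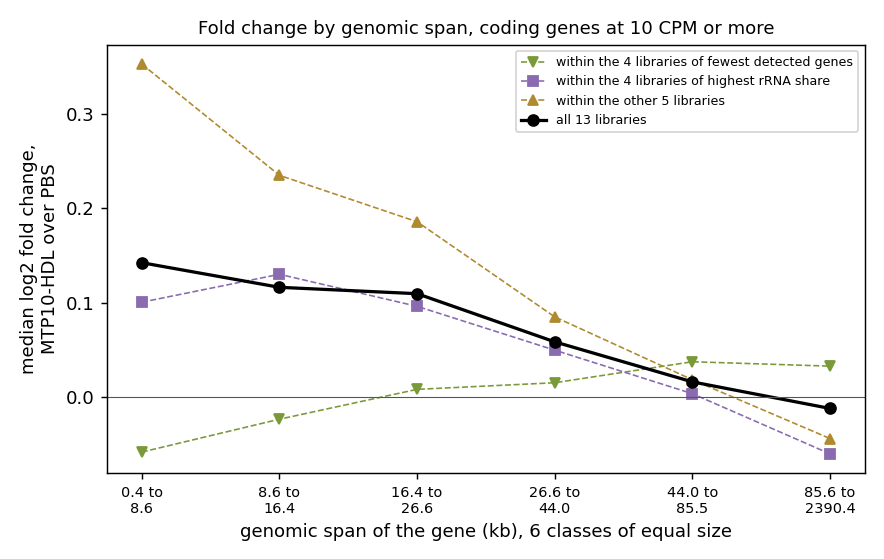
Median log2 fold change (MTP10-HDL over PBS) of coding genes at 10 CPM or more in 6 classes of genomic span (kb), over all 13 libraries (black) and within the 3 technical groups (dashed). The black line goes down from 0.14 to -0.012, and the line of the 4 libraries with the fewest detected genes goes up from -0.058 to 0.033.

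Other methods called genes where edgeR called none. DESeq2 called 104 of 17148 genes (0.606%), 26 higher and 78 lower, and 96 of them were tested by edgeR too, all with an unadjusted p under 0.05 there. Tox and Ermap had the smallest adjusted p-values among those outside the immunoglobulins (DESeq2 adjusted p = 8.48e-05 for each), with Paqr9, Add2, Slc22a23, Nfia, Zrsr1, Igf2r and Mgll also called lower. limma voom with sample quality weights called 0 genes, with 2319 at an unadjusted p under 0.05 (54.6% higher) and a smallest adjusted p of 0.0591. When low counts were not filtered, edgeR called 7 higher and 37 lower genes, 44 in all. Of these 23 were immunoglobulin segments, and 21 genes were called both there and by DESeq2.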

How the data were processed

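RNA of 13 HSC pools was amplified to complementary DNA and sequenced as single reads of 50 bases, per the labels' protocols. The authors deposited raw read counts for 55471 Ensembl genes. CASAVA 1.8.2, STAR 2.5.2b and the mm10 genome are named in the submitters' processing notes, while the sources used here do not give the counting tool, the strand setting or the handling of reads with several matches. PBS columns are numbered 1 to 7, whereas the labels number 1 PBS sample 8, so PBS columns were used as a group. Multipotent progenitor counts and chromatin accessibility samples were not analysed here.

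The counts were TMM-scaled, filtered by filterByExpr and tested with the quasi-likelihood F test of edgeR 4.0.16 (R 4.3.3), with Benjamini-Hochberg adjustment over all 16631 genes that passed the filter. Technical groups come from the number of detected genes and the ribosomal RNA share. In simulated counts of these 16631 genes, 200 were changed, all drawn from those with a PBS mean of at least 10 CPM. Of 1-unit log2 changes 49.0% and of 2-unit ones 97.0% were recovered at FDR 0.05, and 4.58% of calls were false. The simulation held no technical groups or outlying libraries, and recovery under 10 CPM was not simulated. DESeq2 1.42.0 and limma 3.58.1 voom, other filters, a technical covariate and left-out libraries were alternatives. Single library values were compared by a 2-sided exact permutation test over 1716 arrangements. Positions and promoters are from RefSeq GRCm38.p6, matched by symbol.

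Members and the 65 lists (1691 symbols, 1689 found, 1605 tested) were chosen with earlier results of these data known. A rule chose the genes to name, among those with an established symbol that averaged 10 CPM or more: the 20 of smallest p in each direction, the 10 largest and 10 smallest fold changes and the 10 most abundant at p under 0.05, up to 4 members of smallest p from each list with any member whose groups do not overlap, and 9 genes named in any case. Members of lists are named whatever their level. A few genes that the rule picks are not reported here.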

Additional observations from a re-analysis of the deposited data

Results flagged for a closer look

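In each group the library farthest from the others was checked by Dixon's test (95% level) on log2 CPM for every gene named, and on library shares, and chance alone flags about 1 group in 20. Of 272 groups checked, 21 held such a library. MTP10-HDL 1 was the high one for Irf7 (86.0 CPM against 14.0 to 26.4 CPM in the other treated libraries), Ms4a6b (274 CPM against 35.0 to 61.8), Elmo2 (79.3 CPM against 39.7 to 50.4) and Malat1 (6777 CPM against 3220.2 to 4129). It was the low one for Cdk6 (1337 CPM against 1928 to 2307), Tubb5 (1102 CPM against 1739 to 2252), Eif3l (113 CPM against 144 to 163) and Gars (65.9 CPM against 83.0 to 95.1). MTP10-HDL 3 was high for Chsy1 (98.5 CPM against 68.5 to 77.4) and Mgll (3.98 CPM against 2.27 to 2.57) and low for Gimap3 (3.32 CPM against 8.42 to 12.4).

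Among PBS libraries, PBS 5 was low for Gars (44.6 CPM against 61.3 to 73.7), Prps1 (17.4 CPM against 37.2 to 56.5) and Exosc10 (47.4 CPM against 65.2 to 80.2). PBS 4 was low for Gpr141 (0.376 CPM against 4.84 to 21.0) and Rhd (3.64 CPM against 8.36 to 14.9), and PBS 7 was low for Mapkapk2 (36.3 CPM against 65.5 to 89.6) and high for Kcnq1ot1 (869 CPM against 516 to 594). PBS 2 was high for Igf2r (83.5 CPM against 47.9 to 57.7), PBS 1 for S100a11 (83.6 CPM against 24.4 to 40.2), and PBS 2 held the highest share of immunoglobulin counts (19.8% against 0.271% to 7.83%).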

How the results depend on the processing

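edgeR called 0 genes at FDR 0.05 and 1469 at an unadjusted p under 0.05. DESeq2 called 104 (2792 at p under 0.05), edgeR with no filter on low counts 44 (4720), and limma voom 0 (2319). Leaving out 1 library at a time gave 0 to 1 calls, the 1 being Ermap without MTP10-HDL 4 (log2 fold change -2.11, FDR 0.0230), and 1142 (without PBS 7) to 1942 (without PBS 4) genes at p under 0.05. Without the 4 libraries of fewest detected genes, an alternative chosen after seeing the data like that without PBS 2 and MTP10-HDL 1, 0 genes were called and 2206 stood at p under 0.05. More genes are tested without the filter, and the cause of the other differences was not tested.

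Among the 130 named genes, changes of sign were counted only for those with an unadjusted p under 0.05 in the main fit. Of these, 3 changed sign under 1 alternative, limma voom: Dab2 (-0.37), Ifi213 (-0.011) and Pla2g7 (-0.022). Of the 65 list medians, 32 kept their sign under all 21 alternatives. Counts of list members at p under 0.05 moved too. Without the 4 libraries of fewest detected genes they went from 5 to 0 in the Wnt list, 4 to 1 in basophil and mast cell markers, 3 to 1 in nuclear receptors, 4 to 12 in the lysosomal list, 5 to 12 in translation factors and 3 to 7 in STAT and IRF factors. Without PBS 2 and MTP10-HDL 1 they went from 2 to 0 in integrin subunits and in SOCS genes, 3 to 1 in S100 proteins and annexins and 5 to 10 in translation factors. Over the 9667 genes tested under every setting the median log2 fold change was 0.06 in edgeR and 0.05 in DESeq2.

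Column numbers do not pair the groups: same-numbered libraries correlated at -0.19 to 0.19 and none correlated best with its own number. With the replicate block by column number edgeR called 0 genes and had 1003 at p under 0.05.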

Other observations

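S100 proteins and annexins, which bind calcium and membranes, had 15 of 17 measured members above 0, with a median log2 fold change of 0.42 and 3 higher and 0 lower at an unadjusted p under 0.05. Anxa2, an annexin of membrane traffic, was at 10.3 to 38.2 CPM with PBS and 23.3 to 56.1 CPM with MTP10-HDL (medians 21.1 and 39.8; log2 fold change 0.80, SE 0.29). S100a11 was at 24.4 to 83.6 CPM with PBS and 38.3 to 87.1 CPM with MTP10-HDL (medians 37.95 and 65.3; log2 fold change 0.58, SE 0.25). The median was 0.27 without MTP10-HDL 1 and 0.68 without the 4 libraries of fewest detected genes. Chemokine genes went both ways, with 2 higher and 2 lower among 19. Ccl9, a myeloid chemokine, was at 22.9 to 86.7 CPM with PBS and 56.7 to 162 CPM with MTP10-HDL (medians 52.7 and 73.6; log2 fold change 0.75, SE 0.31, or 0.49 without MTP10-HDL 1). Ccl3, an inflammatory one, was at 5.31 to 39.99 CPM with PBS and 1.20 to 17.5 CPM with MTP10-HDL (medians 17.4 and 6.46; log2 fold change -1.35, SE 0.52). Ccr9, the gut and thymus homing receptor, was at 11.4 to 29.2 CPM with PBS and 2.57 to 18.1 CPM with MTP10-HDL (medians 16.1 and 6.50; log2 fold change -1.21, SE 0.38). None of 22 TNF and TNF receptor genes stood at an unadjusted p under 0.05, and neither did any of 42 genes of RNA polymerase II and Mediator.

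Sphingolipid enzymes held members of both directions. Sptlc2, a subunit of the transferase that opens sphingolipid synthesis, was at 77.9 to 117 CPM with PBS and 116 to 195 CPM with MTP10-HDL (medians 115 and 133; log2 fold change 0.42, SE 0.15). Cers6, a ceramide synthase, was at 56.3 to 128 CPM with PBS and 79.7 to 199 CPM with MTP10-HDL (medians 75.5 and 109; log2 fold change 0.55, SE 0.22, or 0.34 without MTP10-HDL 1). Sphk1, which makes the migration signal sphingosine 1-phosphate, was on the lower side, at 10.9 to 29.1 CPM with PBS and 1.37 to 12.3 CPM with MTP10-HDL (medians 17.2 and 4.86; log2 fold change -1.43, SE 0.44). Among ubiquitin ligase subunits Rbx1, the RING protein of cullin complexes, was at 24.5 to 38.2 CPM with PBS and 38.01 to 61.9 CPM with MTP10-HDL (medians 29.9 and 44.3; log2 fold change 0.56, SE 0.15). Ddb1, an adaptor of such complexes, was at 166 to 249.7 CPM with PBS and 205 to 307 CPM with MTP10-HDL (medians 219 and 280.3; log2 fold change 0.35, SE 0.13). Exosc10, the nuclease of the RNA exosome, was at 47.4 to 80.2 CPM with PBS and 76.7 to 107 CPM with MTP10-HDL (medians 71.8 and 90.6; log2 fold change 0.36, SE 0.14). Exosc4, a core subunit, was at 6.62 to 14.6 CPM with PBS and 13.9 to 20.9 CPM with MTP10-HDL (medians 11.5 and 15.6; log2 fold change 0.61, SE 0.24).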
